A study of Mus musculus with 16 samples.

Results

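The interaction between ventricle and banding, taken here as the banding response of the right ventricle minus that of the left, was measured in all 16 libraries of the study, 4 in each of 4 groups. The groups were the right ventricular free wall of sham-operated mice, the right free wall of mice with pulmonary artery banding, and the left free wall of sham and of banded mice. All were adult male FVB mice, an inbred strain, aged 10 to 13 weeks, with no transgene or drug named. The labels write PS for the non-sham libraries, and PS is read as banded because the protocol names only banding and sham surgery. Banded libraries are named here by their label, as in left banded PS_9552, and sham libraries by their replicate number. A band on the pulmonary artery raises the pressure against which the right ventricle ejects, so the left ventricle of the same treatment group serves as a chamber without the direct load. The labels do not state which libraries came from the same mouse, so p-values measure only how these libraries vary, a spread that may be technical in part. PolyA RNA was measured as FPKM, fragment counts scaled to transcript length and to the mapped fragments of the library, and differences are on the log2(FPKM + 1) scale, which understates changes of low genes. Of the 23946 genes in the table, 12100 reached 1 FPKM in at least 4 of the 16 libraries and were tested. Tm6sf2 passed this filter just inside, with a fourth-highest value of 1.001 FPKM, and Tox fell just outside at 0.999 FPKM. Only 8 genes passed it through a single group, and limma called the interaction for 0 of these 8 genes on both scales, with 7 at an unadjusted p below 0.05.

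Pressure overload makes cardiac muscle re-express fetal and stretch-responsive genes, among them the natriuretic peptides, and makes fibroblasts lay down matrix. The adult ventricle draws most of its ATP from fatty acid oxidation and the respiratory chain, and lower expression of these genes is a known feature of failing heart muscle. A ventricle-by-load interaction compares the response of the loaded chamber with that of the other chamber, and a change in either chamber can produce it.

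Libraries differed in ways that touch the interaction. The right sham libraries were the sparsest, with 11055 to 13205 genes above 0 FPKM against 13646 to 15801 in the other 3 groups. Between 4.23% and 13.9% of the tested genes were listed at 0 there, against 0.347% to 2.71% elsewhere. The ribosomal RNA precursor Rn45s was listed at 0 in 5 libraries, all banded (right PS_9561 and PS_9564, left PS_9552, PS_9553 and PS_9561). Among the 11 libraries with an Rn45s value, which hold 8 sham, 2 right banded and 1 left banded library, 3 genes passed with a positive and 6 with a negative interaction in limma. In these 11 libraries the estimates of all 64 genes with a positive and all 418 with a negative interaction (below) kept their sign, with medians of 1.44 and -1.38. They are a subset of the same libraries. Ventricular cardiomyocyte markers such as Myl2 and Tnni3 were abundant in all 16 libraries. The chamber labels could not be checked from transcription factors: 0 of 13 tested regulators of ventricular identity, such as Hand2, Irx4 and Tbx5, differed between ventricles in sham or in banded mice by limma, with 1 at an unadjusted p below 0.05 in each. Depth was not given, and the part of depth and Rn45s in the interaction was not tested.

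The banding response differed between the ventricles for 482 genes, 3.98% of those tested. The interaction was positive, a larger rise or smaller fall on the right, for 64 genes (0.529% of those tested) and negative for 418 (3.45%). Every count called here passed a limma adjusted p of 0.05 with 1 sign in both forms of the values, as deposited and divided by a median-ratio scale factor per library. As deposited alone, 64 were positive and 669 negative (5.53%), and after rescaling alone 261 (2.16%) and 426 (3.52%), so the scaling moved the share of positive against negative calls. The interaction median of all tested genes was -0.07 as deposited and 0.11 rescaled. In the right ventricle 1275 genes rose (10.5%) and 596 fell (4.93%), while in the left 295 rose (2.44%) and 36 fell (0.298%). The response classes were built from these calls and share their libraries, so their signs follow from the rule. Shared responses, called in both ventricles in the same direction without a called difference, held 85 rises and 19 falls. Right-only responses, which also had to pass the interaction and stay above the threshold on both scales in the left, held 52 rises and 115 falls. Left-only responses by the mirrored rule held 57 rises and 2 falls. Opposite responses called in both ventricles held 13 genes, all lower on the right and higher on the left. Estimates of opposite sign with a called interaction and at least 1 called ventricle, a looser rule that overlaps the right-only and left-only sets, held 31 genes with a positive and 217 with a negative interaction. Nppa and Pfkp rose in both ventricles with a called difference in size. The other 241 genes with a called interaction fell outside these classes, apart from the looser opposite set, which held some of them. The left and right comparisons share no library: 29.5% of the left rises and 6.82% of the right rises were common to both, as were 52.8% of the left falls and 3.19% of the right falls.

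**Figure D1:**
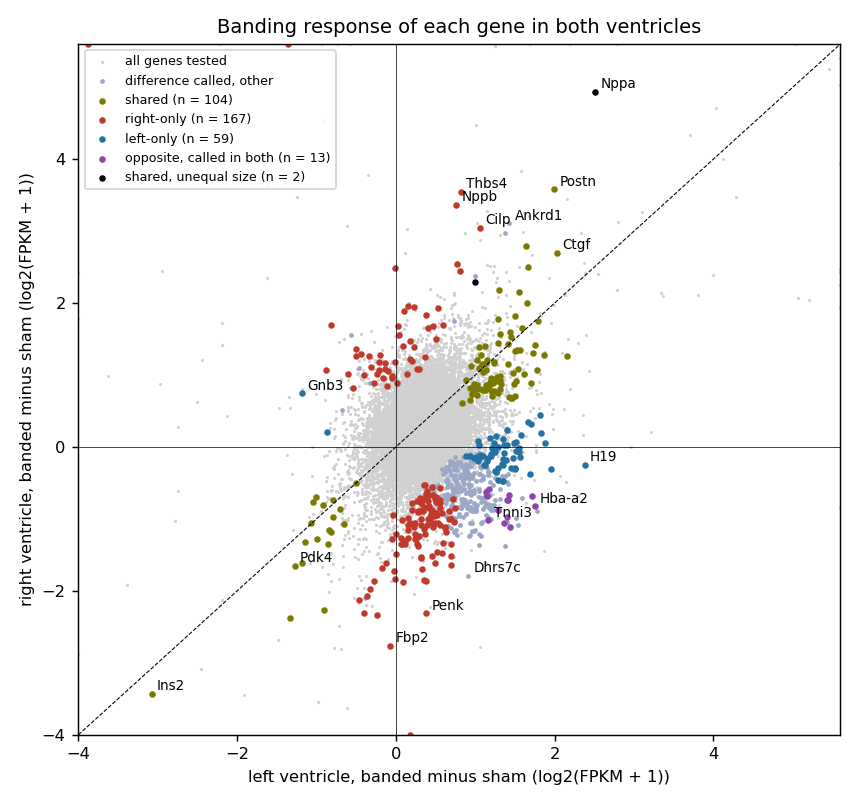
Banding response of each tested gene (banded minus sham, log2(FPKM + 1)) in the left ventricle (x axis) and right ventricle (y axis), coloured by class, with values outside the axes drawn at the border. Nppa, Nppb and Thbs4 lie far above the dashed line of equal response, the 104 shared genes lie in the lower left and upper right, on and off the line, and the 13 opposite genes lie in the lower right of the plot.

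Counts of this size depended on single libraries. The number of negative genes fell to 249 without left banded library PS_9552 and to 258 without left sham 1. The number of positive genes fell to 26 without left banded PS_9552, 28 without left sham 3, 31 without left sham 1 or right banded PS_9564, 33 without left banded PS_9564, 38 without left sham 2 and 40 without right banded PS_9553. Right-only rises numbered 21 without left banded PS_9552 or right banded PS_9564, 24 without left sham 3, 26 without left sham 1 or left banded PS_9564, 30 without right banded PS_9553, 32 without right banded PS_9561, 34 without left sham 2 and 79 without right sham 4. Right-only falls numbered 57 without left banded PS_9564 and 72 without right banded PS_9564. Shared responses dropped to 17 without left sham 2 or left banded PS_9553, 26 without left banded PS_9561, 33 and 34 without left sham 3 and 1, 53 and 65 without right banded PS_9561 and PS_9553, 59 without left banded PS_9552 and 69 without right banded PS_9552. The 13 opposite genes became 1 without left sham 2, 2 without left banded PS_9553, 3 without left sham 1 or right banded PS_9553, 4 without left sham 3, 6 without left banded PS_9552, 7 without left banded PS_9561, left banded PS_9564 or right sham 4, 21 without right sham 2 and 35 without left sham 4. The looser opposite set held 150, 152 and 159 genes without left banded PS_9552, left sham 1 and left sham 3.

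Several load-response genes had positive interactions. Of the 18 tested genes of the natriuretic and load-response list, 3 had a called positive interaction (Nppa, Nppb and Ankrd1) and 1 a negative one (Csrp3). Their median interaction was 0.48, against -0.07 for all genes. In the right ventricle 13 of the 18 rose and in the left 6 rose, against 10.5% and 2.44% of all tested genes, with none called lower in either. Their median responses were 1.56 on the right and 1.01 on the left. At an unadjusted p below 0.05 in limma, 13 rose on the right and 12 on the left.

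Nppa encodes atrial natriuretic peptide, a hormone that stretched heart muscle secretes. It stood at 49.1, 91.9, 82.3 and 39.95 FPKM in the right sham libraries and at 2535, 1568, 2205 and 1594 FPKM in the right banded ones. In the left ventricle it went from 224, 101, 157 and 85.9 FPKM to 605, 1147, 881 and 532 FPKM. Sham and banded libraries did not overlap in either ventricle, and the gene was lower in the right than the left before banding on average and higher after it. The log2 response was 4.94 on the right and 2.505 on the left, an interaction of 2.43 ± 0.46 (SE; limma adjusted p = 0.00404).

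Nppb encodes brain natriuretic peptide. Its right sham libraries held 64.4, 63.3, 96.1 and 234 FPKM and the right banded libraries 1033, 1002, 1167 and 894 FPKM. The left went from 385, 353, 208 and 232 FPKM to 238, 1099, 633 and 330 FPKM. Right libraries were fully separated, whereas the left groups overlapped, with left banded PS_9552 and PS_9564 within the sham range. The interaction was 2.60 ± 0.60 (SE; limma adjusted p = 0.0151), and with library weights Nppb lost its call.

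Ankrd1, a stretch-induced partner of titin in the sarcomere, stood at 321, 224, 391 and 622 FPKM in right sham and at 2606, 2631, 4090 and 3481 FPKM in right banded libraries. Left values were 1638, 924, 991 and 860 FPKM in sham and 2033, 4042, 4551 and 1816 FPKM in banded hearts. No groups overlapped within a ventricle, and the right sham level lay below the left sham level. The interaction of 1.68 (limma adjusted p = 0.0431) lost its call in 12 of 16 omissions of a single library, and kept it without right sham 4, left sham 4, or left banded PS_9553 or PS_9561. Myh7, the slow beta myosin heavy chain of the fetal ventricle, behaved as a shared rise: 1.31 on the right and 1.73 on the left, with an interaction of -0.42 (limma adjusted p = 0.655) whose sign turned under 4 of the scalings and corrections. Acta1, skeletal alpha-actin, rose by 2.38 on the right, where the groups overlapped. Its interaction of 1.37 was not called (limma adjusted p = 0.405). Right sham 4 held 497 FPKM of it against 37.5 to 86.7 FPKM in the other right sham libraries, and without it the interaction was 2.15 (limma adjusted p = 0.0169). Gdf15, a stress cytokine (2.14, limma adjusted p = 0.0784), and Rcan1, a calcineurin target (1.59, 0.0539), had positive estimates that missed the threshold.

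**Figure D2:**
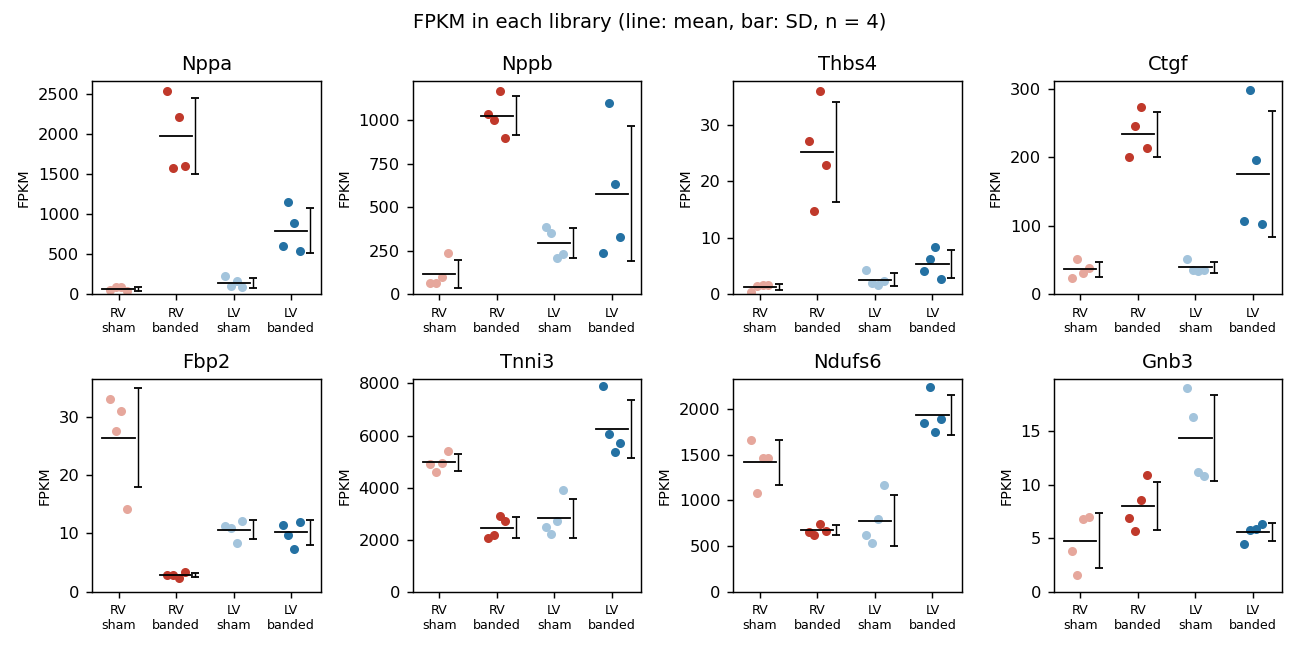
FPKM of 8 genes in each of the 16 libraries (y axis, linear, from 0) by group (x axis), where points are libraries, lines are means and bars are SD over 4 libraries. Nppa, Nppb and Thbs4 rise chiefly in the right banded libraries, Ctgf rises in both ventricles, Fbp2 falls in the right, Tnni3 and Ndufs6 fall in the right and rise in the left, and Gnb3 falls in the left.

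Markers of atrial muscle were present at low levels and varied between libraries. Myl7, the atrial light chain, averaged 63.3 and 16.9 FPKM in right sham and banded libraries and 62.2 and 30.8 FPKM in left ones. Sln, sarcolipin of the atrium, averaged 27.5, 35.4, 36.2 and 8.95 FPKM in the same order. Of the 7 tested atrial markers, Nppa had a called positive and Stard10 a called negative interaction, and the list median was 1.47. The summed list, mostly Nppa, ranged over 69.9 to 369 FPKM in right sham, 1617 to 2809 in right banded, 145 to 599 in left sham and 557 to 1431 in left banded libraries. Bmp10 did not pass the filter. The part of atrial tissue in the natriuretic peptide values was not tested.

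The promoters of 3 genes with large positive interactions and of Ndufs6, an opposite gene, are shown because the results above and below turn on these genes. Each run is the 250 bases before the RefSeq gene start in GRCm38.p6, read 5′ to 3′ on the gene's strand, while the FPKM came from mm9. Capitals mark CATTCC or its reverse complement GGAATG, the core of the M-CAT element bound by TEAD factors. No match to AAGGTCA or TGACCTT, the core of the estrogen-related receptor element, occurred in these 4 windows.
Nppb promoter, chr4:147985650-147985899, plus strand: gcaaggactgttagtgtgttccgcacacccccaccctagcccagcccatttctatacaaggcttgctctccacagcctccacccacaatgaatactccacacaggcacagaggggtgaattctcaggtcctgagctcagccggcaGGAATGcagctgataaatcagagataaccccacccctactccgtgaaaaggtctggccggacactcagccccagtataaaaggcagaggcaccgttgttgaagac
Thbs4 promoter, chr13:92794819-92795068, minus strand: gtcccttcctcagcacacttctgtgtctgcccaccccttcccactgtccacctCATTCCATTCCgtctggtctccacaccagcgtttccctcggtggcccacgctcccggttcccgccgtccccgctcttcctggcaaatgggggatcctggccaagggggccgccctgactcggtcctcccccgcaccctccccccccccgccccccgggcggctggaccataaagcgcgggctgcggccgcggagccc
Nppa promoter, chr4:148000472-148000721, plus strand: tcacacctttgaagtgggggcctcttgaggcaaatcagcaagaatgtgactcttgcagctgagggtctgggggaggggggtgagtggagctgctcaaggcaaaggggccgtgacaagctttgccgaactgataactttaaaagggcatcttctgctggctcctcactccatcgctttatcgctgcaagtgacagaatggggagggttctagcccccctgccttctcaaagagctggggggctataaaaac
Ndufs6 promoter, chr13:73328483-73328732, minus strand: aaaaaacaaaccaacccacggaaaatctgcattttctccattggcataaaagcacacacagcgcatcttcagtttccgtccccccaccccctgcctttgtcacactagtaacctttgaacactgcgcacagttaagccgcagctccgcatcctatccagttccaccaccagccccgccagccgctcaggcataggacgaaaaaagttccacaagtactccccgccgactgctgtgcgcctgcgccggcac
The M-CAT core occurred in the Nppb window at 1 position and in the Thbs4 window at 2 positions that share a base. It was found in 16% of the 50 promoters of genes with a positive interaction, 11.6% of 318 with a negative one, 10.7% of 9027 promoters of tested genes and 12.6% of all 27025 promoters of this length. The receptor core was found in 6%, 2.83%, 2.7% and 4.05% in the same order. Tead1, chosen after its values were seen, was among the right-only rises. A match is a string of letters and not a measured binding site.

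Matrix genes rose in the loaded right ventricle. Of 41 tested extracellular matrix genes, 6 had a called positive interaction and none a negative one, and the list median was 0.68. It stayed positive under rescaling (0.88), TPM scaling (1.24), quantile normalization (0.79) and correction for transcript length (0.59). In the right ventricle 32 of the 41 rose, and in the left 5, against 10.5% and 2.44% of all tested genes. The left estimates were mostly positive too, with median responses of 1.22 on the right and 0.71 on the left. At an unadjusted p below 0.05 in limma, 39 of the 41 rose on the right and 27 on the left. The 6 with a called interaction were Thbs4, Cilp, Col4a1, Col4a2, Col8a1 and Ltbp2, and all 6 were right-only rises. After rescaling alone 12 were called and under TPM scaling and quantile normalization 14.

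Thbs4 encodes thrombospondin 4, a matricellular protein of stretched muscle and tendon. The right sham libraries held 0.385, 1.37, 1.52 and 1.53 FPKM, and the right banded ones 27.2, 14.8, 36.0 and 22.8 FPKM. Left libraries held 4.17, 2.04, 1.53 and 2.34 FPKM in sham and 4.13, 6.19, 8.30 and 2.70 FPKM in banded hearts. The right groups lay far apart, while the left groups overlapped. Its interaction of 2.73 ± 0.46 (SE; limma adjusted p = 0.00223) was the largest positive value among the genes named.

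Cilp, cartilage intermediate layer protein, which binds TGF-beta in the matrix, was at 0.932, 0, 0.621 and 0.348 FPKM in right sham libraries and at 9.47, 8.46, 14.9 and 11.5 FPKM in right banded ones. In the left it went from 1.09, 0.739, 0.770 and 0.915 FPKM to 1.28, 4.77, 7.28 and 1.10 FPKM. Left banded PS_9553 and PS_9561 were raised, and the other left banded libraries lay close to sham. The interaction was 1.99 (limma adjusted p = 0.0294), and the call was lost without right banded PS_9561 or PS_9564, left sham 1, 2 or 3, or left banded PS_9552 or PS_9564 (limma adjusted p up to 0.0751). The basement membrane collagens Col4a1 and Col4a2 rose by 1.19 and 1.24 on the right, with 0.21 and 0.37 on the left and interactions of 0.98 and 0.88. Col8a1, a short-chain collagen, had an interaction of 1.71 and Ltbp2, a latent TGF-beta binding protein relative, one of 1.64.

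For the fibrillar collagens Col1a1 and Col3a1 the interaction was not called. The right rise of Col1a1 was called (1.07, limma adjusted p = 0.000638), and its left change of 0.28 was not. Col1a1 averaged 47.9 and 101 FPKM in right sham and banded libraries and 48.2 and 59.6 FPKM in left ones, an interaction of 0.79 (limma adjusted p = 0.054) that passed after rescaling alone (0.0417). Col3a1 had an interaction of 0.97 (limma adjusted p = 0.0738). Matrix genes called in both ventricles included Postn, Bgn, Sparc, Fstl1 and Mfap5. In bulk tissue, more cells of a type and more RNA per cell cannot be told apart. Of 10 fibroblast markers, none had a positive and 1, Scara5, a negative called interaction, and their summed levels ranged over 890 to 1195 FPKM in right sham, 785 to 1225 in right banded, 595 to 827 in left sham and 1013 to 1542 in left banded libraries. The part of fibroblast number in the matrix response was not tested.

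Other genes with a positive interaction came from several functions. Ccnd2, cyclin D2 of the G1 phase, went from 12.1, 16.5, 8.47 and 13.8 FPKM to 38.8, 42.0, 45.3 and 75.6 FPKM on the right. On the left it stood at 31.1, 26.1, 25.2 and 26.1 FPKM in sham and 23.9, 34.2, 37.3 and 23.8 FPKM in banded hearts, so the left groups overlapped. Its interaction was 1.78 ± 0.32 (SE; limma adjusted p = 0.00317), and it was the only one of 14 tested cell cycle genes with a called interaction.

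Ip6k3, an inositol hexakisphosphate kinase of muscle, went from 1.57, 1.18, 1.27 and 2.73 FPKM to 6.40, 6.84, 7.26 and 6.47 FPKM on the right, and from 7.61, 6.59, 5.13 and 4.86 FPKM to 2.77, 4.68, 5.67 and 2.37 FPKM on the left. The right banded libraries thus reached the level of left sham libraries. The interaction was 2.13 (limma adjusted p = 0.00164), with a left change of -0.57 that was not called. Pfkp, the platelet-type phosphofructokinase of glycolysis, rose by 2.29 on the right and 0.99 on the left, an interaction of 1.30 (limma adjusted p = 0.0199) that missed the threshold without left banded PS_9552 (0.0519). The creatine transporter Slc6a8 (0.87, right-only) and the Wnt-pathway modulator Dact3 (1.61, right-only) were further rises.

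A set of genes was called in 1 direction in both ventricles, although only the right carried the band. The 85 shared rises had median responses of 0.97 on the right and 1.25 on the left, and the 19 shared falls of -1.16 and -0.92. A shared call means that the difference was not called, not that the responses were equal. Ctgf, a connective tissue growth factor induced by stretch and TGF-beta, went from 24.2, 50.5, 31.5 and 38.1 FPKM to 200, 246, 274 and 213 FPKM on the right. On the left it went from 51.7, 34.8, 34.1 and 34.8 FPKM to 107, 298, 195 and 103 FPKM. Neither ventricle showed overlap, and the interaction was 0.67 (limma adjusted p = 0.439).

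Bgn, the proteoglycan biglycan, rose by 1.76 on the right and 1.79 on the left. Postn, periostin of activated fibroblasts, rose by 3.58 and 1.99. Its interaction of 1.59 missed the threshold as deposited (limma adjusted p = 0.0996) and passed after rescaling alone (0.0383). Tgfb2 and Tgfb3, TGF-beta ligands, also rose in both ventricles. Of the 16 genes of the TGF-beta signalling list, 0 had a called interaction on both scales by limma, against 3.98% of all tested genes. At an unadjusted p below 0.05 in limma there were 2. Myh7, Xirp2 and Nrap, genes of the sarcomere and its attachment sites, were further shared rises.

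Pdk4, the kinase that shuts off pyruvate dehydrogenase, was a shared fall. It went from 191, 110, 156 and 180 FPKM to 27.1, 78.5, 45.5 and 58.8 FPKM on the right and from 209, 136, 140 and 122 FPKM to 42.0, 113, 67.6 and 42.3 FPKM on the left. All banded libraries except left PS_9553 lay well below the sham range, and that library lay just below it. Grip2, a scaffold protein (-1.61 right, -1.18 left), and Slc25a42, the mitochondrial coenzyme A carrier (-1.27 and -0.99), fell in both. Lgals4, a galectin of gut epithelium, fell by 2.37 and 1.34.

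Ins2, preproinsulin, was also a shared fall by the rule. It stood at 1418, 770, 1475 and 509 FPKM in right sham and 1620, 292, 99.0 and 74.1 FPKM in left sham libraries, against 46.8 to 114 FPKM in right banded and 18.4 to 47.0 FPKM in left banded ones. Other pancreatic genes moved with it: of 9 tested islet and acinar markers 6 fell in the right and 1 in the left, and the summed list ranged over 656 to 2157 FPKM in right sham, 89.6 to 2105 in left sham, 68.0 to 157 in right banded and 25.6 to 59.8 in left banded libraries. The part of pancreatic RNA in other sham against banded differences was not tested.

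Genes of fatty acid use fell on the right and made up 7 of the 115 right-only falls. Of 27 tested genes of fatty acid uptake and oxidation, 9 had a called negative interaction and none a positive one. In the right 15 fell, and in the left 0 were called on both scales by limma, with 4 at an unadjusted p below 0.05. Over all tested genes 3.45% had a called negative interaction, 4.93% fell in the right and 0.95% were right-only falls. In the left 2.44% of all tested genes rose and 0.298% fell, so no left call in 27 genes is near those shares. Their median responses were -0.58 on the right and 0.00 on the left as deposited, and -0.77 and -0.40 after rescaling. Under quantile normalization the left median was the lower, at -0.56 against -0.43 on the right. The 7 right-only falls were Acaa2, Acadvl, Cpt2, Eci1, Fabp3, Hadha and Plin5. The median interaction of -0.70 moved to -0.02 under TPM scaling and to -0.16 under quantile normalization, with 2 and 5 genes called negative. After a correction of each library for its trend with expression level it was 0.13, with 5 genes called negative. The median responses were then -0.34 on the right and -0.54 on the left.

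Etfb, the electron transfer flavoprotein subunit that passes electrons from fatty acid oxidation to the respiratory chain, stood at 702, 598, 665 and 665 FPKM in right sham and 293, 246, 321 and 264 FPKM in right banded libraries. In left libraries it held 322, 300, 321 and 459 FPKM in sham and 772, 589, 500 and 523 FPKM in banded hearts. No groups overlapped within a ventricle, and the right fell while the left estimate rose. The interaction was -1.99 ± 0.24 (SE; limma adjusted p = 0.00069). Ucp3, a mitochondrial uncoupling protein homologue induced by fatty acids, fell by 2.10 on the right with an interaction of -1.71, and the thiolase Acaa2 fell by 1.55 with an interaction of -1.86.

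Fbp2, the muscle fructose bisphosphatase, was the steepest right-only fall named. It went from 33.05, 27.5, 31.0 and 14.2 FPKM to 2.93, 2.82, 2.39 and 3.37 FPKM on the right, and stood at 11.2, 10.9, 8.35 and 12.1 FPKM and at 11.5, 9.78, 7.35 and 12.04 FPKM in left sham and banded libraries. Left groups overlapped throughout. The interaction was -2.69 ± 0.33 (SE; limma adjusted p = 0.00069).

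Penk, the enkephalin precursor, went from 18.7, 21.7, 16.7 and 16.4 FPKM to 2.60, 2.72, 5.19 and 1.73 FPKM on the right. The left held 7.40, 9.76, 6.95 and 9.77 FPKM in sham and 12.2, 8.13, 11.8 and 13.2 FPKM in banded hearts. The right groups were far apart and the left groups overlapped, an interaction of -2.69 (limma adjusted p = 0.00069). Pfkfb1, which sets fructose 2,6-bisphosphate, fell by 2.34 on the right (interaction -2.10). Adra1b, the alpha-1B adrenergic receptor, fell by 1.83 (interaction -1.82), a call lost without left sham 1 or left banded PS_9552 or PS_9564 (limma adjusted p up to 0.0536). Pfkfb1 and Adra1b lost their calls under TPM scaling.

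Respiratory chain genes gave a broad negative interaction, through lower values on the right and higher values on the left. Of 37 tested complex I subunits, 23 had a called negative interaction and none a positive one, a share far above the 3.45% of all genes. Their median response was -0.70 on the right and 0.82 on the left, and 34 of the 37 had a negative right and a positive left estimate, against 21.9% of all tested genes. In the right ventricle 22 fell and in the left 6 rose. Complexes II to IV had 15 of 27 called negative (median -1.36) and ATP synthase 11 of 14 (median -1.73), again with none positive.

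The size of this group's interaction depended on the scaling, though its direction did not under those run. The complex I median was -1.57 as deposited, -1.36 rescaled, -1.24 corrected for length, -0.90 under TPM scaling, -0.88 under quantile normalization and -0.62 after the level correction. The number of complex I genes called negative was 3 under TPM scaling, 11 under quantile normalization and 9 after the level correction. For complexes II to IV the medians under these 3 were -0.67, -0.52 and -0.21 with 1, 3 and 1 genes called, and for ATP synthase -1.03, -0.81 and -0.56 with 1, 4 and 3 genes called.

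Ndufs6, an accessory subunit of complex I, was among the 13 genes called in opposite directions. Right sham libraries held 1661, 1078, 1461 and 1458 FPKM and right banded ones 652, 620, 746 and 668 FPKM. Left sham libraries held 620, 531, 799 and 1164 FPKM and left banded ones 1845, 2242, 1745 and 1886 FPKM. No groups overlapped within a ventricle, and the right banded level resembled the left sham level. The interaction was -2.43 ± 0.30 (SE; limma adjusted p = 0.00069). Ndufs4, Ndufb9 and Ndufb10 of complex I were also opposite, as were Uqcc2, a complex III assembly factor, and Fis1, a mitochondrial fission protein. Atp5e, the epsilon subunit of ATP synthase, fell by 1.36 on the right and had a left estimate of 1.05, an interaction of -2.41. Uqcr11 of complex III had an interaction of -1.88 that was not called after the level correction or under TPM scaling.

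**Figure D3:**
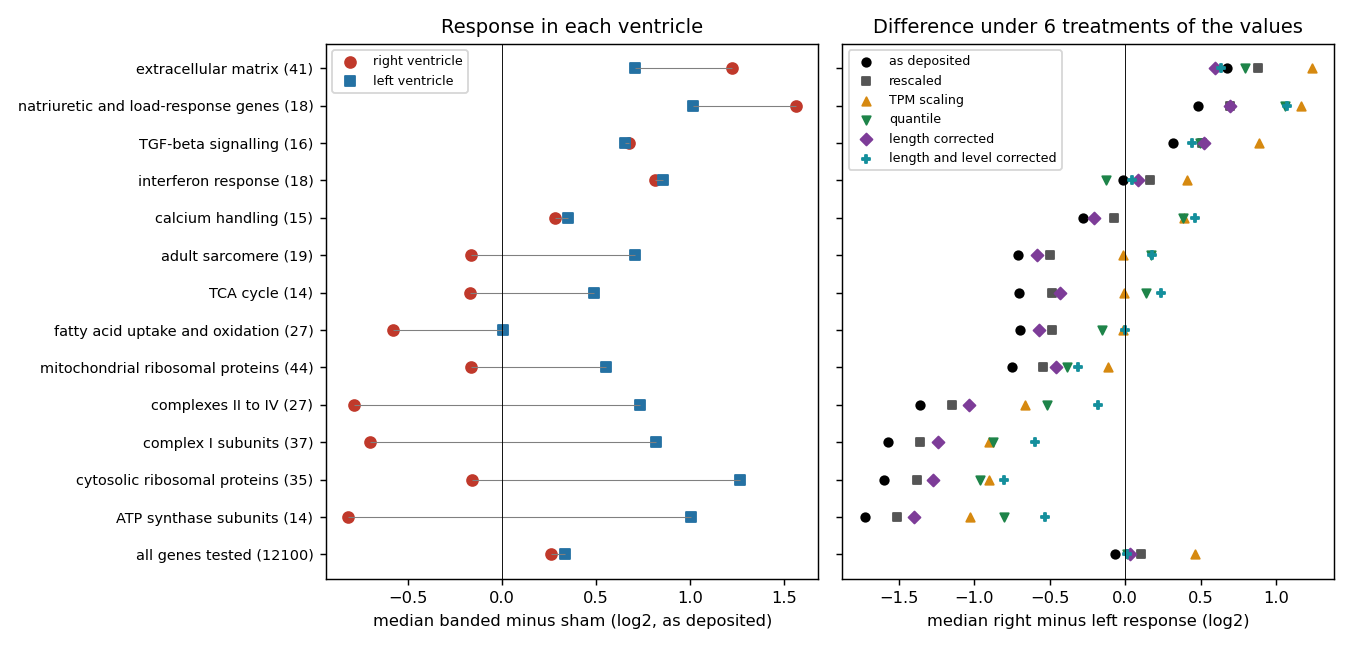
Median log2 responses of gene lists, with the number of genes tested in parentheses: responses of the right and left ventricle as deposited (left panel) and the right minus left response under 6 treatments of the values (right panel). Respiratory and ribosomal lists are negative under all 6 and the extracellular matrix positive under all 6, whereas the sarcomere and TCA lists lie on either side of 0.

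Contractile genes included further opposite responses. Tnni3, cardiac troponin I, stood at 4914, 4598, 4943 and 5414 FPKM in right sham and 2079, 2171, 2898 and 2721 FPKM in right banded libraries. In the left ventricle it went from 2481, 2210, 2722 and 3905 FPKM to 7891, 6075, 5367 and 5700 FPKM. The groups did not overlap in either ventricle, and the interaction was -2.18 ± 0.28 (SE; limma adjusted p = 0.00069). Tnni3 lost its call after the level correction.

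Myl2, the ventricular regulatory light chain, was opposite too (-0.87 right, 1.28 left, interaction -2.15). Of 19 adult sarcomere genes, 7 had a called negative interaction (Myl2, Myl3, Myoz2, Tcap, Tnnc1, Tnni3 and Tpm1) and none a positive one. Over all tested genes 3.45% were called negative and 0.529% positive. Titin, Ttn, rose by 0.82 on the right with an interaction of 0.49 that was not called (limma adjusted p = 0.533), and Mybpc3 had an interaction of 0.13. The list median was -0.71 as deposited, -0.02 under TPM scaling, 0.17 under quantile normalization and 0.47 after the level correction. Under TPM scaling and under quantile normalization 1 gene was called positive and 1 negative, and after the level correction the 2 genes called were positive. Summed ventricular cardiomyocyte markers ranged over 26109 to 29755 FPKM in right sham, 15859 to 23208 in right banded, 17637 to 26244 in left sham and 35340 to 44674 in left banded libraries, and 3 of these 9 markers had a called negative interaction. The part of cardiomyocyte content in the respiratory and contractile responses was not tested.

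Hba-a2, alpha-globin of red cells, was opposite as well. It stood at 321, 221, 201 and 253 FPKM in right sham, 193, 102, 98.03 and 187 FPKM in right banded, 116, 67.8, 106 and 116 FPKM in left sham and 452, 355, 300 and 262 FPKM in left banded libraries. The ranges were separate within each ventricle, and the left banded libraries were the highest group on average. The interaction was -2.57 (limma adjusted p = 0.000825), and reads shared with its near-identical paralog make the value uncertain. Of 6 erythroid markers 1 was called, and the summed list ranged over 247 to 566 FPKM in right sham, 222 to 528 in right banded, 139 to 264 in left sham and 514 to 1214 in left banded libraries.

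The largest negative interactions beyond these lists also paired a negative right with a positive left estimate. Cdo1, cysteine dioxygenase, went from 3.61, 5.38, 6.86 and 6.23 FPKM to 0.877, 1.71, 3.08 and 0.811 FPKM on the right. On the left it went from 1.02, 2.09, 0.978 and 1.68 FPKM to 9.49, 5.59, 4.94 and 2.60 FPKM. The groups were separate in each ventricle, with an interaction of -2.74 ± 0.46 (SE; limma adjusted p = 0.0021). Dhrs7c, a reductase of the sarcoplasmic reticulum, had responses of -1.79 and 0.91, an interaction of -2.70. Psenen, a gamma-secretase subunit, was opposite in both calls (-1.12 and 1.44). Ccl6, a chemokine of myeloid cells, had an interaction of -2.67 whose call was lost without right banded PS_9564, left sham 1 or 3, or left banded PS_9553 (limma adjusted p up to 0.0672), and also under TPM scaling and with no filter.

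Right and left levels can also be compared within sham and within banded hearts. This chamber contrast shares all libraries with the interaction and is a description, not further evidence. Among the 418 genes with a negative interaction, the right sham estimate exceeded the left sham estimate in 417, and the right banded estimate exceeded the left banded one in 2. The median right minus left difference was 0.70 in sham and -0.78 in banded hearts. Among the 64 with a positive interaction, the right was higher in 0 sham and 61 banded estimates by limma, with medians of -0.94 and 0.50. In sham hearts the right exceeded the left for 308 genes (2.55%) and fell below it for 161 (1.33%), and in banded hearts for 22 (0.182%) and 168 (1.39%). The sham and banded chamber contrasts share no library. Of 29 genes called in both, 28 had opposite signs and 1, Nampt, an enzyme of NAD synthesis, was lower on the right in both (-1.26 and -1.39).

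**Figure D4:**
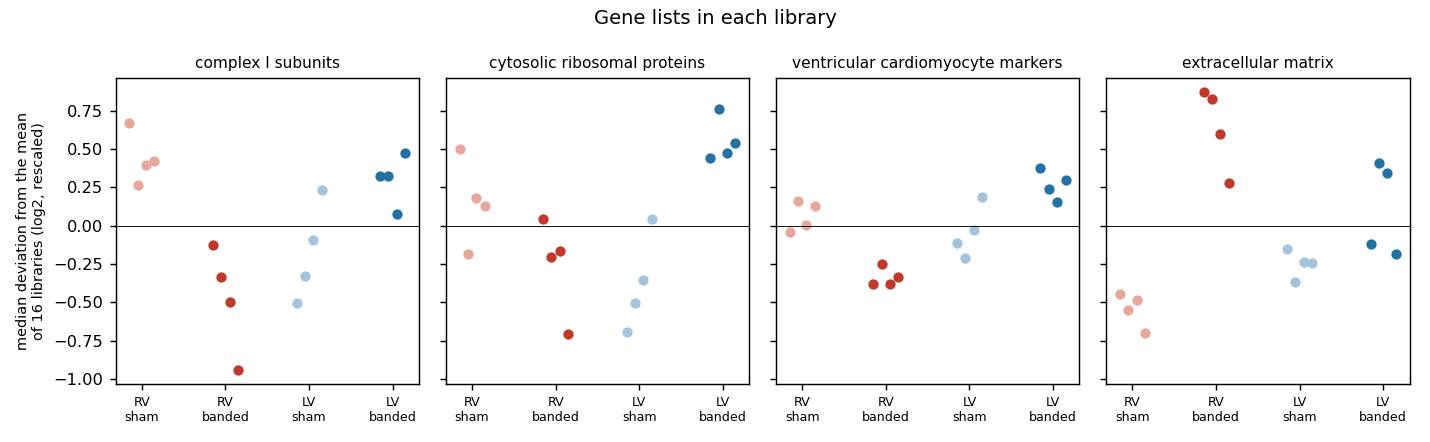
Median deviation of 4 gene lists from the mean of the 16 libraries (y axis, log2, rescaled) for each library by group (x axis). Complex I values of right sham libraries (0.26 to 0.67) lie near those of left banded ones (0.08 to 0.47), right banded libraries lie at -0.94 to -0.13, and extracellular matrix values of right banded libraries (0.28 to 0.87) overlap those of left banded ones (-0.19 to 0.41).

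Left-only responses were rises in 57 of 59 genes, 8 of them cytosolic ribosomal protein genes. Of 35 tested cytosolic ribosomal protein genes, 19 had a called negative interaction and none a positive one, 16 rose in the left and none in the right, and 6 fell in the right. Over all tested genes 3.45% had a called negative interaction, 2.44% rose in the left and 4.93% fell in the right. Their median response was 1.27 on the left and -0.16 on the right. The interaction median was -1.60 as deposited, -0.90 under TPM scaling, -0.96 under quantile normalization and -0.87 after the level correction. Under the last 3 treatments 3, 16 and 15 genes were called negative. Ribosomal protein genes have many processed pseudogenes, and how shared reads were counted is not given in the sources used here, so single values are uncertain.

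Rps14, of the small subunit, was called in opposite directions. It stood at 325, 188, 170.3 and 238 FPKM in right sham and 159.6, 109.5, 183 and 115 FPKM in right banded libraries, which overlapped. On the left it went from 85.7, 73.3, 90.8 and 120.4 FPKM to 294, 335, 319 and 264 FPKM, with no overlap. It fell by 0.69 on the right and rose by 1.72 on the left, an interaction of -2.40 ± 0.30 (SE; limma adjusted p = 0.00069). Left-only rises further included the translation factors Eef2, Eif1 and Eif3h, the chaperone Calr, and Npm1 of the nucleolus. The 59 left-only responses became 13 without left sham 2, 15 without left banded PS_9553, 18 without left sham 1, 21 without left sham 3, 22 without left banded PS_9552, 30 without left banded PS_9561 and 130 without left sham 4.

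H19, an imprinted noncoding RNA of fetal muscle, had the largest left-only rise named. Its right libraries held 10.1, 23.0, 14.9 and 15.8 FPKM in sham and 12.9, 13.4, 17.6 and 8.62 FPKM in banded hearts. Its left libraries held 2.78, 2.41, 4.03 and 6.37 FPKM in sham and 45.1, 20.3, 17.9 and 17.8 FPKM in banded hearts, with left banded PS_9552 the highest. Right groups overlapped and left groups did not, an interaction of -2.62 ± 0.46 (SE; limma adjusted p = 0.00273). Cidea, a lipid droplet protein, rose by 1.28 on the left with an interaction of -1.75 whose call was lost under TPM scaling.

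The 2 left-only falls were Gnb3 and Gpam. Gnb3, a G protein beta subunit, went from 19, 16.3, 11.1 and 10.8 FPKM to 4.43, 5.74, 5.85 and 6.36 FPKM on the left. The right held 3.83, 1.54, 6.75 and 6.97 FPKM in sham and 6.90, 5.71, 8.54 and 10.9 FPKM in banded hearts. Left groups were separate and right groups overlapped, an interaction of 1.94 (limma adjusted p = 0.0141). Gpam, the mitochondrial acyltransferase that starts triglyceride synthesis, had an interaction of 1.08 (limma adjusted p = 0.0384), a call lost in 11 of 16 single omissions and kept without right sham 2, right banded PS_9552 or PS_9561, left sham 4 or left banded PS_9561.

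The interaction moved with transcript length and expression level across all genes. Length here is the median over the annotated coding transcripts of a gene, not that of the form expressed in heart. A gene with short annotated forms thus counts as short, as did Myh6 (542 nt), Myh7 (377 nt) and Kcnq1 (294 nt). The median interaction was -0.20 for genes of at most 800 nt by this measure, of which 6.16% were called negative. It was 0.22 for those over 5000 nt, of which 0.637% were. Among transcripts of at most 1200 nt with a mean over 50 FPKM, 27.8% were called negative, with a median of -0.83. Outside the gene lists used here the share was 18.5% in that class, with a median of -0.68. Respiratory and ribosomal genes are short and abundant: the median length was 572 nt for complex I and 751 nt for cytosolic ribosomal genes. With the length trend of every library removed, 184 genes were positive and 415 negative, 60 of the 64 and 364 of the 418 kept their call, and 23 complex I genes were called negative. With both length and level corrected, 200 were positive and 233 negative. The part of RNA quality or library preparation in this trend was not tested.

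**Figure D5:**
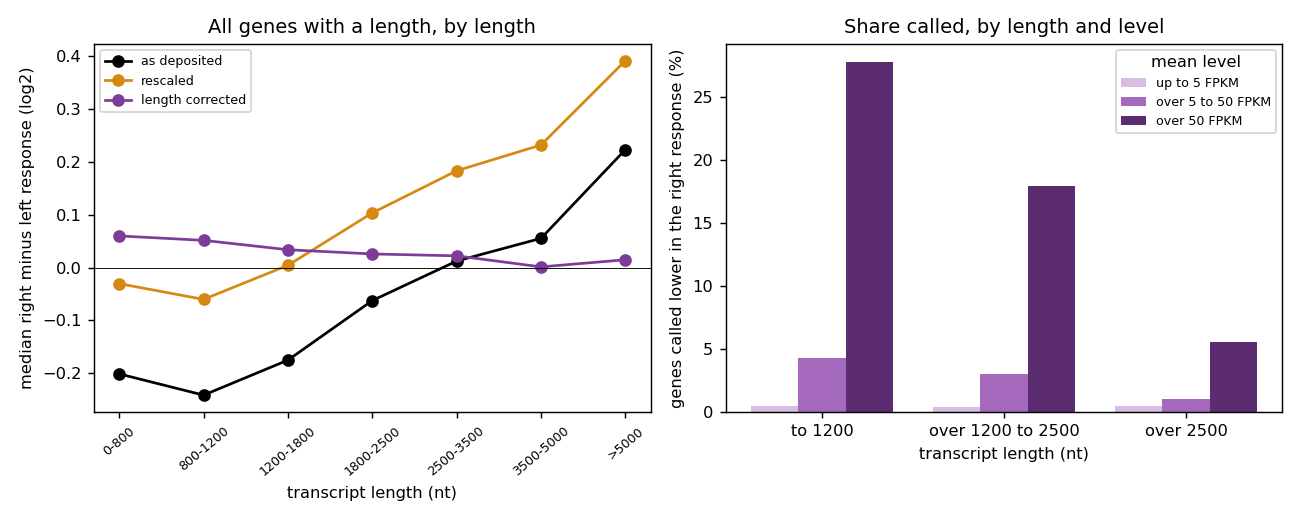
Left panel: median right minus left response (y axis, log2) of genes by transcript length (x axis, median of annotated transcripts) as deposited, rescaled and corrected for length. Right panel: percentage of genes called lower in the right response, by transcript length and mean FPKM, which reaches 27.8% for short genes over 50 FPKM.

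Several other programmes had few or no called interactions. By limma on both scales, 0 of 18 interferon-response genes, 0 of 17 immediate early genes and 0 of 16 circadian clock genes had a called interaction, with 3, 1 and 3 at an unadjusted p below 0.05. Over all tested genes 3.98% had a called interaction, so lists this short would hold few calls or none at that share. The zeros here and for the markers below thus do not set these genes apart. At these group sizes a missed threshold does not show that the ventricles responded alike. Interferon-response genes had median responses of 0.82 on the right and 0.86 on the left, with 6 and 1 called rises, and immediate early genes 0.40 and 0.69. No called interaction occurred among 12 endothelial, 10 mural and 13 macrophage and monocyte markers, with 3, 1 and 4 at an unadjusted p below 0.05 in limma. Macrophage and monocyte markers summed to 156 to 228 FPKM in right sham, 204 to 346 in right banded, 130 to 194 in left sham and 255 to 426 in left banded libraries.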

How the data were processed

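PolyA RNA of 16 right and left ventricular libraries was measured. The deposited values are FPKM per gene and library, made by the authors, as the title of the deposited table states. Per the submitters' processing notes, the tools were FastQC 0.11.5, STAR 2.5.3a, Cufflinks 2.2.1, Cuffdiff and R 3.3.1, and the build mm9. Counting options and strand are not given in the sources used here, so a gene and its antisense partner cannot be told apart. Depth is unknown, whole reads were not recovered, and no counting interval is given. A relative depth, from the 5% quantile of length-scaled values above 0 in single-transcript genes (1 is the median library), ranged over 0.118 to 0.416 in right sham and 0.598 to 2.72 in the other libraries.

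Genes that reached 1 FPKM in 4 or more of the 16 libraries were fitted as log2(FPKM + 1) with limma 3.58.1 (R 4.3.3, trended prior, 4 group means), with Benjamini-Hochberg adjustment over 12100 genes and a threshold of 0.05. The fit was repeated on values divided by the median ratio over 8211 genes at 1 FPKM or more in every library, and a call needed both in 1 direction. The fit was tested on simulated normal values with changes added to the right banded libraries only. That simulation held no sparse libraries and no trend with length or level. Lengths came from GENCODE M21 by symbol (12012 of the tested genes), as the median over a gene's annotated coding transcripts, and promoters from RefSeq. Such a length can differ from that of the transcript expressed. The corrections for length, GC content and level subtract each library's lowess trend (span 0.3).

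Genes were named by a rule: the largest interactions and class members that reached 5 FPKM on average in some group and whose sham and banded libraries were separate, 10 fixed genes, and the called members of each list with the smallest p. Small RNA, predicted genes, pseudogenes and entries with several symbols were left out. Other genes named, such as Nampt, Ucp3 and the collagens, were chosen after their values were seen. Members and the 36 lists (23 of genes, 13 of markers) were chosen with earlier results of these data known. Alternatives were other scalings, pseudocounts, filters, a robust prior, library weights, a block, a term for Rn45s at 0 and omission of each library. Those for GC content, level and libraries with an Rn45s value were added after seeing the data. A few genes that met the rule are not reported here.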

Additional observations from a re-analysis of the deposited data

Results flagged for a closer look

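The banding response differed between the ventricles, by the limma test of the difference itself, for 44 named genes. The values are right minus left log2 responses. Among matrix and load genes they were Thbs4 (2.73), Nppb (2.60), Nppa (2.43), Cilp (1.99), Itgbl1 (1.76), Ankrd1 (1.68) and Csrp3 (-1.13). Among fuel and mitochondrial genes they were Ndufs6 (-2.43), Atp5e (-2.41), Uqcr11 (-1.88), Etfb (-1.99), Idh2 (-1.16), Mrpl28 (-1.23), Ckm (-1.91), Fbp2 (-2.69), Pfkfb1 (-2.10), Pfkp (1.30), Gpam (1.08), Slc6a8 (0.87), Cidea (-1.75) and Dhrs7c (-2.70). Among contractile, channel and signalling genes they were Tnni3 (-2.18), Hrc (-1.52), Kcnq1 (-1.44), Adra1b (-1.82), Gnb3 (1.94), Ip6k3 (2.13), Dact3 (1.61), Mib1 (1.72) and Ccnd2 (1.78). Among ribosomal, stress and autophagy genes they were Rps14 (-2.40), Rps20 (-2.25), Rpl14 (-1.82), Cryab (-1.38) and Map1lc3a (-2.15). Among other genes they were Cdo1 (-2.74), Penk (-2.69), Ccl6 (-2.67), H19 (-2.62), Hba-a2 (-2.57), Psenen (-2.56), Stard10 (-1.97), Abhd1 (-1.90) and Scara5 (-1.48). 

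Leaving out each of the 16 libraries in turn, 30 of these 44 kept their call in every omission. The other 14 lost it in at least 1 omission, and Ankrd1, Cilp, Gpam, Adra1b, Ccl6 and Pfkp are described above. Itgbl1 lost it in 13 (limma adjusted p up to 0.119) and kept it without right sham 4, right banded PS_9552, left banded PS_9553. Mrpl28 lost it in 11 (limma adjusted p up to 0.0922) and kept it without right sham 1 or 4, right banded PS_9552, left sham 4, left banded PS_9561. Rps20 lost it in 11 (limma adjusted p up to 0.094) and kept it without right sham 2, right banded PS_9552 or PS_9553, left sham 3 or 4. Cryab lost it in 9 (limma adjusted p up to 0.0784) and kept it without right sham 1, 2 or 3, right banded PS_9552 or PS_9553, left sham 4, left banded PS_9561. Kcnq1 lost it without right banded PS_9553, PS_9561 or PS_9564, left sham 1, 2 or 3, left banded PS_9552 or PS_9564 (limma adjusted p up to 0.0886). Abhd1 lost it without right banded PS_9564, left sham 1 or 3, left banded PS_9552 or PS_9564 (limma adjusted p up to 0.0566). Csrp3 lost it without left sham 1, 2 or 3, left banded PS_9552 or PS_9553 (limma adjusted p up to 0.0686). Mib1 lost it without right banded PS_9564, left sham 1 or 2, left banded PS_9552 (limma adjusted p up to 0.0697). In the 11 libraries with an Rn45s value every one of the 44 kept its sign. These 11 are a subset of the libraries that gave the calls and hold 1 left banded library, so the signs are no independent check.

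A single library stood apart from the other 3 of its group in 18 of 232 groups of 4 libraries, where chance gives about 5%. Library left sham 4 was highest for Acta1 (343 FPKM), Etfb (459 FPKM) and Map1lc3a (388 FPKM). Library right sham 4 was highest for Acta1 (497 FPKM). Library left sham 1 was highest for Ankrd1 (1638 FPKM), Ccnd2 (31.1 FPKM), Ctgf (51.7 FPKM), Ins2 (1620 FPKM) and Itgbl1 (4.34 FPKM). Library left banded PS_9552 was highest for Ckmt2 (1877 FPKM) and H19 (45.1 FPKM). Library right banded PS_9561 was highest for Csrp3 (1483 FPKM), Postn (83.8 FPKM) and Rpl14 (59.7 FPKM). Library left banded PS_9564 was highest for Dact3 (13.1 FPKM). Library right banded PS_9564 was highest for Mib1 (10.7 FPKM). Library right sham 1 was highest for Stard10 (26.2 FPKM). Library right sham 1 was lowest for Thbs4 (0.385 FPKM).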

How the results depend on the processing

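The counts reported were 64 positive interactions, 418 negative interactions, 104 shared responses, 52 right-only rises, 115 right-only falls, 59 left-only responses, 13 opposite responses called in both and 248 opposite responses by estimates. Rescaled alone there were 261 positive interactions, 159 shared responses, 198 right-only rises, 302 right-only falls, 26 opposite responses called in both and 486 opposite responses by estimates. Under TPM scaling there were 726 positive interactions, 28 negative interactions, 45 shared responses, 703 right-only rises, 13 right-only falls, 5 left-only responses, 2 opposite responses called in both and 475 opposite responses by estimates. TPM scaling divides each library by its FPKM sum. The small RNA entry Mir6236 held 21.3% (right banded PS_9552) to 59.7% (right banded PS_9564) of that sum. Under quantile normalization there were 255 positive interactions, 266 negative interactions, 160 shared responses, 183 right-only rises and 186 right-only falls. With a term for Rn45s at 0 there were 169 positive interactions, 0 shared responses, 103 right-only rises, 266 right-only falls, 0 left-only responses and 0 opposite responses called in both. After length correction there were 184 positive interactions, 142 right-only rises, 305 right-only falls, 30 opposite responses called in both and 426 opposite responses by estimates. After length and GC correction there were 211 positive interactions, 146 right-only rises, 305 right-only falls, 97 left-only responses, 28 opposite responses called in both and 462 opposite responses by estimates. After level correction there were 251 positive interactions, 268 negative interactions, 182 right-only rises and 191 right-only falls. After length and level correction there were 200 positive interactions, 233 negative interactions, 150 right-only rises and 177 right-only falls. In libraries with an Rn45s value only there were 3 positive interactions, 6 negative interactions, 0 shared responses, 3 right-only rises, 3 right-only falls, 3 left-only responses, 0 opposite responses called in both and 4 opposite responses by estimates. As deposited alone there were 669 negative interactions, 407 shared responses, 221 right-only falls, 283 left-only responses, 119 opposite responses called in both and 591 opposite responses by estimates. With no filter there were 66 shared responses and 7 opposite responses called in both. With library weights there were 208 shared responses, 14 right-only rises, 36 right-only falls, 141 left-only responses and 32 opposite responses called in both. With a filter at 5 FPKM there were 23 opposite responses called in both. The counts not listed here stayed within 1.5 times, and so did all of them under pseudocounts of 0.1 and 5, a robust prior and the replicate block. The cause of these shifts was not tested. Leaving out 1 library gave 26 to 90 positive interactions, 249 to 515 negative interactions, 17 to 140 shared responses, 21 to 79 right-only rises, 57 to 152 right-only falls, 13 to 130 left-only responses, 1 to 35 opposite responses called in both and 150 to 344 opposite responses by estimates.

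The replicate block, which takes the number in the library name as a random effect, gave 49 positive and 397 negative interactions, 446 genes that were all among the 482. Same-numbered right and left libraries had correlated deviations of -0.0964 to 0.16, over 0.1 in 1 of 8 pairs, and 1 library matched its own number best. Such correlations cannot show whether same-numbered libraries came from the same mouse. Numbers as a fixed effect left 24 positive and 154 negative interactions, 168 of them among the 482. Ankrd1 and Itgbl1 lost their calls with the random block, and the other named calls did not change.

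Of the 44 named calls, 43 were lost in the libraries with an Rn45s value only and 18 under TPM scaling. The other losses were 11 with no filter, 9 with library weights, 7 under quantile normalization, 7 after length and level correction, 6 after level correction, 2 after length correction, 2 after length and GC correction and 1 with each pseudocount. Cryab, Csrp3 and Idh2 also lost theirs by turning sign after both level corrections. Signs turned as follows, against a reported value that was positive for Slco2a1 and negative for the other genes listed. The Bgn interaction was 0.18 rescaled alone, 0.66 under TPM scaling, 0.58 under quantile normalization, 0.11 with a term for Rn45s at 0, 0.20 after length correction, 0.25 after length and GC correction, 0.65 after level correction, 0.63 after length and level correction, 0.62 in libraries with an Rn45s value only and -0.28 to 0.15 over single omissions, positive in 7. The Ckmt2 interaction was 0.096 under TPM scaling, 0.21 under quantile normalization, 0.73 after level correction and 0.68 after length and level correction. The Cryab interaction was 0.14 after level correction and 0.14 after length and level correction. The Csrp3 interaction was 0.21 after level correction and 0.23 after length and level correction. The Grip2 interaction was 0.19 under TPM scaling. The Idh2 interaction was 0.080 after level correction and 0.11 after length and level correction. The Ins2 interaction was 0.34 under TPM scaling, 0.34 under quantile normalization, 0.086 after length and GC correction, 0.41 after level correction, 0.48 after length and level correction and -1.26 to 0.22 over single omissions, positive in 2. The Myh6 interaction was 0.078 under quantile normalization, 0.58 after level correction and 0.58 after length and level correction. The Myh7 interaction was 0.27 under TPM scaling, 0.34 under quantile normalization, 0.56 after level correction and 0.61 after length and level correction. The Pdk4 interaction was 0.32 under TPM scaling, 0.16 under quantile normalization, 0.25 after level correction, 0.33 after length and level correction and 0.059 in libraries with an Rn45s value only. The Slc25a42 interaction was 0.40 under TPM scaling, 0.17 under quantile normalization and 0.17 after level correction. The Slco2a1 interaction was -0.026 after length and level correction.

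Depth is unknown and limits low genes: 4.23% to 13.9% of tested genes were listed at 0 in the right sham libraries. With 4 libraries per group and values in FPKM, a missed threshold is not evidence of equal responses.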

Other observations

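Genes of glucose use and glycolysis held both kinds of called interaction, and the TCA cycle and mitochondrial ribosomal lists held negative ones only. Of 25 tested genes of glucose use and glycolysis, 1 had a called positive interaction, Pfkp, and 4 a negative one: Fbp2, muscle enolase Eno3 (-1.81), phosphoglycerate mutase Pgam2 (-1.56) and the heart-type lactate dehydrogenase subunit Ldhb (-1.15). On the right 2 of the 25 rose and 5 fell, and on the left 5 rose and 1 fell. The list median of -0.70 was 0.03 after the level correction. The calls were 3 positive and 1 negative under TPM scaling, 2 and 2 under quantile normalization, and 4 and 1 after the level correction. Of 14 TCA cycle genes, 2 had a called negative interaction, Idh2 (-1.16), the mitochondrial isocitrate dehydrogenase, and Suclg1 (-1.20), a succinyl-CoA ligase subunit. Their list median of -0.70 turned to 0.13 under quantile normalization and 0.32 after the level correction. Mitochondrial ribosomal protein genes had 4 of 44 called negative, with a median of -0.75 that was negative under every scaling and correction run on the lists. The shares of all tested genes called were 0.529% positive and 3.45% negative.

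Several ion channel genes fell on the right. Of 19 tested, 7 fell and 1 rose on the right and 2 fell on the left, against 4.93% falls and 10.5% rises on the right and 0.298% falls on the left among all tested genes. The interaction was called positive for 1 and negative for 1 of the 19. Kcnq1, the slow delayed rectifier channel, had responses of -0.72 and 0.72, of which the right was called. Kcnj3, an atrial potassium channel, and Scn4b, a sodium channel subunit, fell in both ventricles, by 0.87 and 0.77 on the right and by 0.70 and 1.04 on the left. Of 15 ubiquitin ligase and autophagy genes, 6 rose and 1 fell on the right and 3 rose on the left. Sqstm1, the autophagy receptor p62, rose by 0.65 and 0.94, whereas the LC3 gene Map1lc3a fell by 1.17 on the right with a left estimate of 0.98 and had the only called interaction of the list. Among 16 stress-response and chaperone genes, Calr, calreticulin, rose by 1.35 on the left with a right estimate of 0.11, and Cryab, alpha-B crystallin, fell by 0.66 on the right with a left estimate of 0.72. In calcium handling, Hrc of the sarcoplasmic reticulum had the 1 called interaction among 15 genes (-1.52). It lost this call under TPM scaling (limma adjusted p = 0.167), under quantile normalization (0.0752) and after the level correction (0.105), where the 2, 1 and 3 genes of the list that were called were positive. Atp2a2, the calcium pump, had an interaction of -0.22 (limma adjusted p = 0.74). These genes were named after their values were seen, and the effect of single libraries on Eno3, Pgam2, Ldhb, Suclg1 and Calr was not run.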
